A study of Mus musculus with 4 samples.

Results

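The interferon regulatory factors (IRFs) are transcription factors that share an N-terminal DNA-binding domain and read GAAA-containing elements in the promoters of interferon and interferon-stimulated genes. Some members (Irf3, Irf5 and Irf7) are switched on by kinases downstream of nucleic acid sensors, Irf9 carries the interferon signal itself, Irf1 and Irf2 act in opposition on shared elements, and Irf4 and Irf8 work with partner factors in lymphoid and myeloid cells. Regulatory T (Treg) cells are Foxp3-positive CD4+ T cells that hold immune responses in check, and in them Irf4 is known in the mouse for its part in effector Treg differentiation. Described here are Irf1, Irf2, Irf3, Irf4, Irf5, Irf7, Irf8 and Irf9, chosen by gene name: 8 of the 24346 gene rows in the authors' deposited expression table.

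The data are bulk RNA sequencing of Treg cells sorted from mouse spleen as Thy1.2+ CD4+ cells carrying the Foxp3-Cre-GFP reporter. The dKO group came from male mice aged 16 weeks, positive for Foxp3-Cre, with both Tcf1 and Lef1 floxed, and is labelled Tcf1-/-Lef1-/-. The WT group came from male mice of the same age that also carried Foxp3-Cre, with wild-type Tcf1 and Lef1. Since Foxp3 drives the Cre, deletion is directed to cells that express Foxp3. Each group had 2 libraries, called dKO_0, dKO_1, WT_0 and WT_1 after the deposited columns. The labels do not tie the libraries to separate animals, so the spread behind every p-value is that between these libraries and may be technical.

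Levels are FPKM (fragment counts divided by transcript length and by library depth), which are scaled by transcript length, so levels of different genes can be set side by side. From the spacing of the lowest values, depth was estimated at about 23000000 and 24100000 fragments for dKO and 19000000 and 22500000 fragments for WT. For each targeted gene, the dKO values lay under the WT values. Tcf7, which encodes Tcf1, had 246.9 and 249.6 FPKM in dKO and 345.0 and 309.1 FPKM in WT (limma adjusted p = 0.158). Lef1 had 41.3 and 36.0 FPKM in dKO and 59.9 and 66.5 FPKM in WT (limma adjusted p = 0.113). A gene-level FPKM also counts exons outside a floxed segment, so it does not measure the deletion. Foxp3 had 132.7 and 144.0 FPKM in dKO and 112.7 and 120.8 FPKM in WT, and the T cell receptor complex gene Cd3g had 722.6 and 682.7 FPKM in dKO and 644.2 and 626.8 FPKM in WT. The 12 Treg and T cell markers, led by Cd3g, Lat and Cd3e, summed to 3739 and 3690.3 FPKM in dKO and to 3534 and 3444 FPKM in WT. Limma called 0 of the 12, against 0.345% of all rows tested. At an unadjusted p under 0.05, 2 were higher and 0 lower, against 9.64% and 7.08% of all rows tested.

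All 8 IRF genes were expressed in every library, and their order by level was nearly the same in dKO and WT. Irf1 stood first in each library, at 200.6 to 229.8 FPKM, with a mean of 214 FPKM over the 4 libraries that lay above 96.3% of the 11595 rows tested. It made up 42.4% and 40.2% of the summed IRF FPKM in dKO_0 and dKO_1, and 40.2% and 40.6% in WT_0 and WT_1. Irf9, Irf3 and Irf2 followed with means of 70.4, 65.9 and 65.1 FPKM, and their ranges over the libraries overlapped, so these neighbours could not be ranked. Irf7, with a mean of 44.6 FPKM, lay apart from Irf2 above it and from Irf8 below it. Irf8 and Irf5, with means of 26.2 and 21.7 FPKM, had overlapping ranges. Irf4 was last in each library at 13.4 to 18.7 FPKM, and its highest value lay below the lowest of Irf5. The sum over the 8 genes was 541 and 558 FPKM in dKO and 505 and 494 FPKM in WT.

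**Figure D1:**
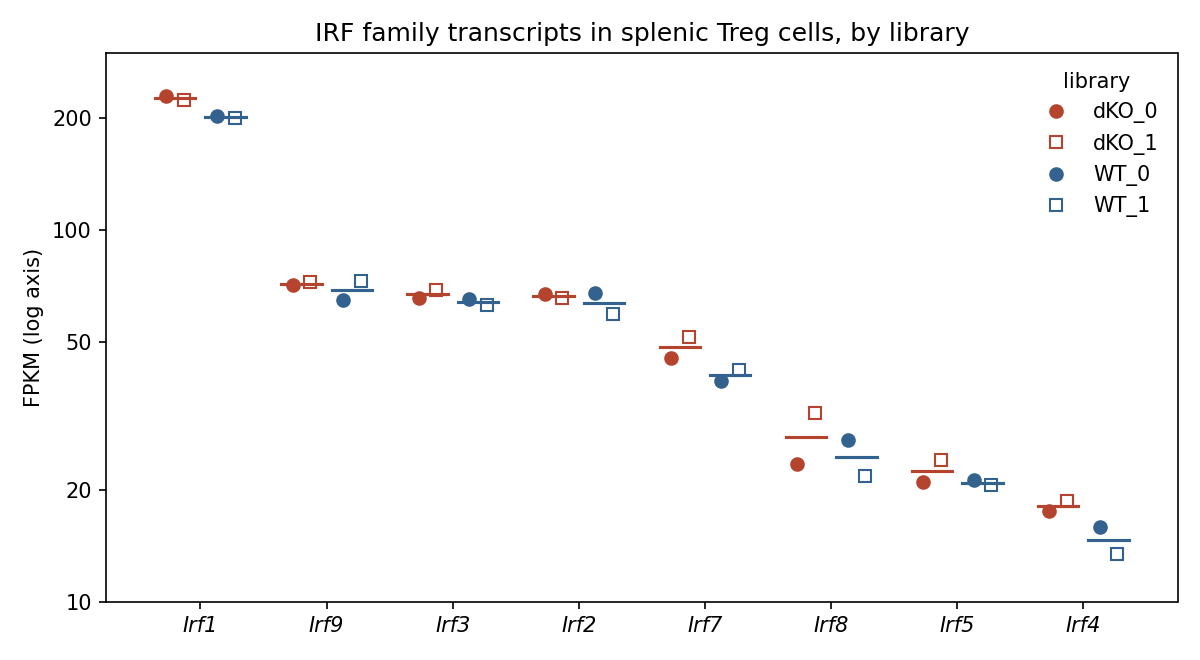
FPKM (log axis) of the 8 IRF genes in each library, with dKO_0 and dKO_1 left of WT_0 and WT_1 for each gene; short bars are group means (n = 2). Irf1 lies at 200.6 to 229.8 FPKM and Irf4 at 13.4 to 18.7 FPKM, and the dKO and WT points do not overlap for Irf1, Irf3, Irf7 and Irf4.

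The comparison of dKO with WT asks which transcripts differ in Treg cells when Tcf1 and Lef1 are targeted. It was made with limma on log2(FPKM + 1) over all 11595 rows with at least 1 FPKM in at least 2 libraries, and a gene was called when its Benjamini-Hochberg adjusted p was under 0.05. All 8 IRF genes passed the filter and 0 were called, against 40 rows (0.345%) over the whole table. At an unadjusted p under 0.05, 3 of the 8 were higher in dKO, against 9.64% of all rows, and 0 were lower, against 7.08%. In 4 of the 8 both dKO libraries lay above both WT libraries, against 27.8% of all rows, and in 0 both lay below, against 23.4%. The authors' deposited lists of changed genes held 332 of the 24346 rows (1.36%) and 0 of the 8. The difference was positive for all 8, against 52.8% of all rows, with a median of 0.13 on the log2(FPKM + 1) scale against 0.01 over all rows. That of Irf9 turned to -0.004 after quantile normalization. With 1 library left out, the lowest differences were -0.03 for Irf2, -0.06 for Irf8 and -0.02 for Irf9.

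**Figure D2:**
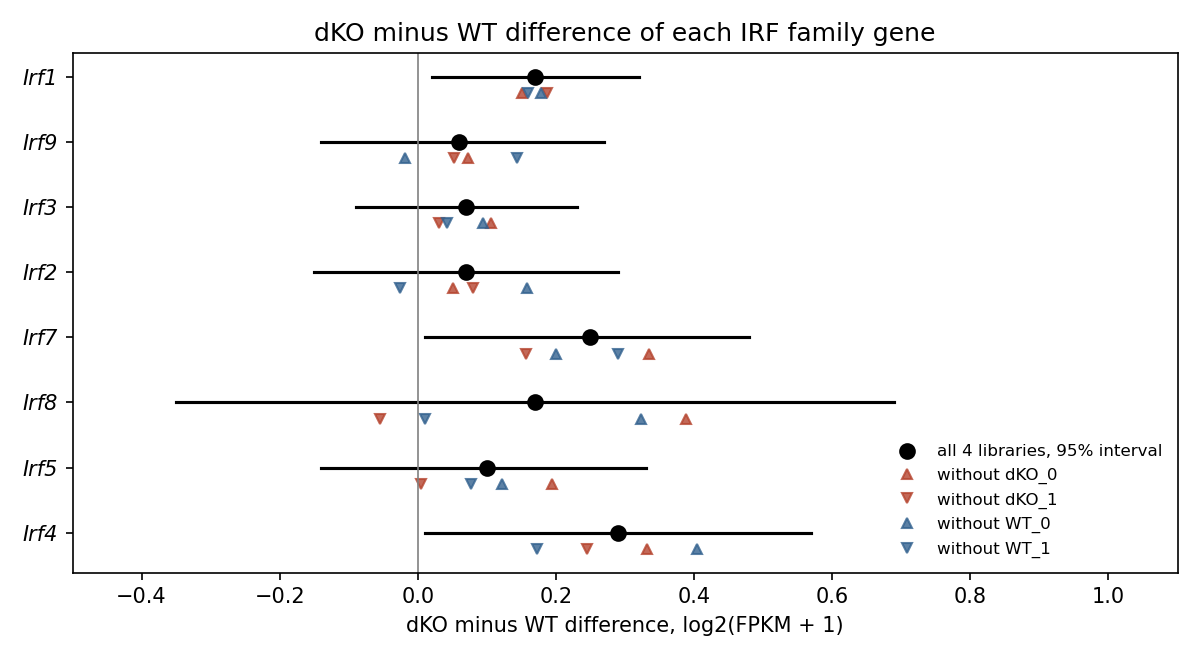
dKO minus WT difference on the log2(FPKM + 1) scale for each IRF gene. Black points and lines are the difference over 4 libraries and its 95% limma interval, and triangles are the difference with 1 library left out. Irf8 has the widest interval, -0.35 to 0.69. The difference passes below 0 for Irf8 without dKO_1, Irf9 without WT_0 and Irf2 without WT_1, and after quantile normalization, which is not plotted, for Irf9.

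Irf1 (chr11:53770014-53778374, plus strand, GRCm38) encodes an activator that interferon-gamma induces and that drives genes of antigen presentation. It had 229.8 and 224.3 FPKM in dKO and 203.2 and 200.6 FPKM in WT. Both dKO values lay above both WT values, and the gap between groups was larger than the spread within either. The dKO mean was 1.12 times the WT mean (log2 difference 0.17, SE 0.0567, 95% interval 0.02 to 0.32), which did not pass over all genes (limma adjusted p = 0.269). A difference of larger absolute size was seen in 35.3% of rows. Quantile normalization brought the difference of Irf1 to 0.08.

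Irf2 (chr8:46739732-46847458, plus strand) encodes a factor that competes with Irf1 for the same elements. It had 67.2 and 65.8 FPKM in dKO and 67.7 and 59.5 FPKM in WT, so the highest and the lowest value were both in WT. The log2 difference was 0.07 (SE 0.0817, 95% interval -0.15 to 0.29, limma adjusted p = 0.715), and without WT_1 it was -0.03. The interval corresponds to dKO levels between 0.898 and 1.22 times those in WT.

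The promoter windows of Irf1, Irf2 and Irf8 carried the letters TTCNNNGAA of the gamma-activated site (GAS) that STAT dimers bind, shown because interferon-gamma signalling is a known route to these genes. Windows of 300 bases (250 before and 50 after the annotated start) were read from RefSeq for GRCm38.p6 and were found for all 8 genes, 11 windows in all. The GAS letters, which read the same on both strands, occurred in a window of 9.55% of all 27025 genes with promoter windows and of 3 of the 8 IRF genes, with 2 matches in Irf8. The letters GAAA, any 2 bases and GAAA of an interferon-stimulated response element (ISRE), searched on both strands, occurred in a window of 3.99% of all genes and, among the 8, of Irf2. The ETS-IRF composite letters, GGAA, any 2 bases and GAAA, searched on both strands, occurred in a window of 3.16% of all genes and likewise of Irf2, where they overlap the ISRE match. The Tcf1/Lef1 core letters CTTTGAT, also searched on both strands, occurred in a window of 4.29% of all genes and of 0 of the 8, which says only that these letters are not in these windows. A match describes letters and is not a mapped binding site. On each line below, 5′ to 3′ on the gene strand, capitals mark the 1 match that the line is named for. The stretches of Irf8 overlap, as do those of Irf2, so a match in capitals on one line can stand in lower case on another.
Irf1, GAS, chr11:53769904-53769952: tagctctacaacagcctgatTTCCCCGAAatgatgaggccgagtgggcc
Irf8, first GAS, chr8:120736167-120736215: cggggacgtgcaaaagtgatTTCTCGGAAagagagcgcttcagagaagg
Irf8, second GAS, chr8:120736185-120736233: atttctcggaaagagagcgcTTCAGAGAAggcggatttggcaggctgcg
Irf2, GAS, chr8:46739501-46739549: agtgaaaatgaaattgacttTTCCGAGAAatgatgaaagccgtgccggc
Irf2, ISRE, chr8:46739495-46739533: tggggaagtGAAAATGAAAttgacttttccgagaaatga
Of these 3 genes, limma called 0.

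Irf3 (chr7:44997648-45002848, plus strand) is present before any stimulus and is activated by the kinase Tbk1 to start interferon-beta transcription. It had 65.7 and 69.3 FPKM in dKO and 65.5 and 63.1 FPKM in WT. The groups did not overlap, but dKO_0 exceeded WT_0 by less than the spread within either group. The log2 difference was 0.07 (SE 0.0602, 95% interval -0.09 to 0.23, limma adjusted p = 0.604). The difference of Irf3 was 0.11 without dKO_0, 0.03 without dKO_1 and 0.02 after quantile normalization.

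Irf7 (chr7:141262706-141266481, minus strand), itself induced by interferon, amplifies interferon-alpha production. It had 45.4 and 51.5 FPKM in dKO and 39.4 and 42.0 FPKM in WT, with both dKO libraries above both WT libraries. The dKO mean was 1.19 times the WT mean (log2 difference 0.25, SE 0.0856, 95% interval 0.01 to 0.48, limma adjusted p = 0.279). A larger absolute difference was seen in 22.2% of rows. The difference of Irf7 was 0.33 without dKO_0 and 0.16 without dKO_1.

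Irf5 (chr6:29526625-29541871, plus strand) acts below Toll-like receptors in macrophages and B cells and induces inflammatory cytokines. It had 21.0 and 24.1 FPKM in dKO and 21.3 and 20.6 FPKM in WT, so dKO_0 lay between the WT values. The log2 difference was 0.10 (SE 0.0873, 95% interval -0.14 to 0.33, limma adjusted p = 0.604), and it was 0.19 without dKO_0 and 0.004 without dKO_1. Exons of Tnpo3 on the opposite strand cover 14.15% of the annotated exon bases of Irf5, and where the counting ignores strand, which the sources used here do not state, reads there cannot be told apart.

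Irf9 (chr14:55603571-55610030, plus strand) binds DNA for the complex ISGF3, which assembles after type I interferon. It had 71.4 and 72.5 FPKM in dKO and 65.0 and 72.8 FPKM in WT, and both dKO values lay within the WT range. The log2 difference was 0.06 (SE 0.0755, 95% interval -0.14 to 0.27, limma adjusted p = 0.706). Without WT_0 it was -0.02 and after quantile normalization -0.004, so no direction can be given for Irf9. Exons of Rnf31 on the same strand cover 2.28% of the exon bases of Irf9, while opposite-strand exons cover 3.4% of those of Irf1 (Gm17334), 2.56% of those of Irf3 (Bcl2l12) and 1.19% of those of Irf7 (Phrf1).

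Irf4 (chr13:30749226-30766976, plus strand) rises with T cell receptor signalling and binds composite elements together with BATF and JUN proteins. It had 17.5 and 18.7 FPKM in dKO and 16.0 and 13.4 FPKM in WT, with no overlap between groups. The dKO mean was 1.23 times the WT mean (log2 difference 0.29, SE 0.103, 95% interval 0.01 to 0.57), the largest difference of the 8 over all 4 libraries, and it did not pass over all genes (limma adjusted p = 0.284). A larger absolute difference was seen in 17.6% of rows. The difference of Irf4 was 0.17 without WT_1, which had the lowest Irf4 value, and 0.40 without WT_0. Without WT_1 the difference of Irf7 (0.29) exceeded that of Irf4, and without dKO_0 that of Irf8 (0.39) exceeded the 0.33 of Irf4. In the authors' deposited table Irf4 had a log2 fold change of 0.30 and a q of 0.636. At these depths the Irf4 value in WT_1 stands for about 109 fragments by its shortest annotated coding transcript and 1439 by its longest, and at 109 fragments counting error alone is 9.58%.

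Irf8 (chr8:120736358-120756694, plus strand) is a lineage factor of B cells, monocytes and dendritic cells and pairs with PU.1. It had 23.4 and 32.2 FPKM in dKO and 27.3 and 21.8 FPKM in WT, and the values of the groups interleaved. Irf8 varied most of the 8, with a highest value 1.48 times its lowest, while that ratio was 1.1 for Irf3. The log2 difference was 0.17 (SE 0.193, 95% interval -0.35 to 0.69, limma adjusted p = 0.694). It was -0.06 without dKO_1 and 0.39 without dKO_0, so no direction can be given for Irf8 either. The interval allows dKO levels from 0.782 to 1.61 times those in WT.

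Among 15 partner factors, genes that cooperate with IRFs, limma called 0, against 0.345% of all rows. At an unadjusted p under 0.05, 1 was higher and 1 lower, against 9.64% and 7.08% of all rows. The median log2 difference of the 15 was 0.05 (-0.01 after quantile normalization and -0.005 without WT_1). The follicular regulator Bcl6 had 11.5 ± 0.656 FPKM in dKO and 15.9 ± 1.57 FPKM in WT (limma adjusted p = 0.169), and Ikzf3, the Aiolos gene, had 82.6 ± 4.91 FPKM in dKO and 66.0 ± 5.59 FPKM in WT (adjusted p = 0.215; SD, n = 2 here and below). Batf3, a partner of Irf8 in dendritic cells, had 2.85 ± 0.407 FPKM in dKO and 1.97 ± 0.324 FPKM in WT (adjusted p = 0.315). Jund, an AP-1 subunit gene, had 267 ± 0.111 FPKM in dKO and 243.5 ± 19.8 FPKM in WT (adjusted p = 0.455).

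Of 15 cofactors and modifiers, limma called 0 (unadjusted p under 0.05: 1 higher, 4 lower), and in 9 both dKO libraries lay below both WT libraries, against the 23.4% of all rows given above. Their median log2 difference was -0.10. Over all rows, 0.345% were called, 9.64% were higher and 7.08% lower by the same thresholds. Irf2bpl, a relative of the Irf2-binding proteins, had 63.0 ± 1.64 FPKM in dKO and 76.0 ± 1.43 FPKM in WT (limma adjusted p = 0.161). Fkbp4, a prolyl isomerase gene whose human product binds IRF4, had 88.0 ± 6.35 FPKM in dKO and 109 ± 0.733 FPKM in WT (adjusted p = 0.178). The acetyltransferase genes Kat2b, at 18.8 ± 0.320 FPKM in dKO and 22.7 ± 0.637 FPKM in WT, and Crebbp, at 26.0 ± 2.01 FPKM in dKO and 31.4 ± 1.73 FPKM in WT, had adjusted p = 0.178 and 0.253.

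Upstream of the IRFs, 21 of 22 sensor, adaptor and kinase genes entered the test (Tlr3 was too low). Limma called 0 of the 21, against 0.345% of all rows. At an unadjusted p under 0.05, 2 were higher and 1 lower, against 9.64% and 7.08% of all rows. The median log2 difference of the 21 was 0.09, and it was 0.04 without WT_1 and 0.05 without dKO_1. Ikbke, a kinase that phosphorylates Irf3 and Irf7, had 65.0 ± 1.03 FPKM in dKO and 79.7 ± 1.84 FPKM in WT (adjusted p = 0.152). The sensor genes Zbp1, at 108 ± 0.124 FPKM in dKO and 89.0 ± 8.41 FPKM in WT, and Ddx58, which encodes RIG-I, at 24.96 ± 0.374 FPKM in dKO and 22.2 ± 0.215 FPKM in WT, had adjusted p = 0.229 and 0.276. Mb21d1, which encodes cGAS, had 4.32 ± 0.431 FPKM in dKO and 3.41 ± 0.004 FPKM in WT (adjusted p = 0.308). Of 8 interferon genes, 6 (Ifnb1, Ifna2, Ifna4, Ifnl2, Ifnl3 and Ifne) were listed at 0 in every library and Ifng alone entered the test, at 14.1 ± 1.83 FPKM in dKO and 9.85 ± 0.894 FPKM in WT (adjusted p = 0.197).

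Interferon receptor and JAK-STAT genes showed 0 limma calls among 14, against 0.345% of all rows called. At an unadjusted p under 0.05, 1 was higher and 2 were lower, against 9.64% and 7.08% of all rows. The median log2 difference of the 14 was 0.02, and -0.02 after quantile normalization and -0.01 after median centring. Stat2, a subunit gene of ISGF3, had 27.04 ± 2.85 FPKM in dKO and 22.6 ± 0.392 FPKM in WT (adjusted p = 0.3002). The receptor chain gene Ifngr2, at 19.9 ± 0.130 FPKM in dKO and 26.7 ± 2.65 FPKM in WT, and the feedback inhibitor gene Socs1, at 133 ± 2.16 FPKM in dKO and 149.5 ± 5.35 FPKM in WT, were below WT in both dKO libraries (adjusted p = 0.168 and 0.282).

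Downstream, limma called 0 of 23 genes that Irf1 and interferon-gamma are known to induce (unadjusted p under 0.05: 16 higher, 1 lower). Over all rows, 0.345% were called, 9.64% were higher and 7.08% lower by the same thresholds. In 20 of the 23 both dKO libraries lay above both WT libraries, against the 27.8% of all rows given above, and the median log2 difference was 0.31 (0.29 after quantile normalization and after median centring). With small RNA rows left out, where 1.64% of rows were called, 5 of the 23 were called higher (Gbp2, Gbp4, Gbp7, Igtp and Iigp1) and 0 lower. The authors' deposited lists held 2 of the 23, both as higher, against 1.36% of all deposited rows in either direction.

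The interferon-induced GTPase gene Gbp2 had 90.1 and 82.8 FPKM in dKO and 54.2 and 49.5 FPKM in WT (log2 difference 0.73, SE 0.0790, limma adjusted p = 0.0768, and 0.0196 with small RNA rows left out). Iigp1, an immunity-related GTPase gene, had 89.9 ± 3.36 FPKM in dKO and 60.8 ± 3.20 FPKM in WT (adjusted p = 0.0891, and 0.0308 with small RNA rows left out). Gbp7 had 60.4 ± 1.20 FPKM in dKO and 44.5 ± 0.854 FPKM in WT (adjusted p = 0.0946 and 0.0393 in the same 2 fits). Igtp had 202 ± 3.30 FPKM in dKO and 148 ± 4.66 FPKM in WT (adjusted p = 0.106 and 0.0357 in the same 2 fits).

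For the 26 genes that ISGF3, the complex of Irf9, is known to drive, limma called 0 (unadjusted p under 0.05: 7 higher, 0 lower). The shares of all rows were 0.345% called, 9.64% higher and 7.08% lower. In 12 of the 26 both dKO libraries lay above both WT libraries, against 27.8% of all rows. The median log2 difference of these genes was 0.20, and it was 0.10 without WT_1 or without dKO_1, 0.33 without WT_0 and 0.30 without dKO_0. WT_1 held the lowest value for 16 of the 26 and dKO_1 the highest for 18. WT_1 was also lowest for 16 of the 23 Irf1 and interferon-gamma targets and 6 of the 12 Treg and T cell markers. For the 14 receptor and JAK-STAT genes it was lowest for 4. How often WT_1 and dKO_1 hold these extremes over all rows was not counted. Bst2, a tetherin that holds budding virions, had 153 ± 1.52 FPKM in dKO and 117 ± 0.944 FPKM in WT (limma adjusted p = 0.113, and 0.0427 with small RNA rows left out, the 1 call of the list there). Rtp4 had 32.5 ± 0.0199 FPKM in dKO and 25.8 ± 0.133 FPKM in WT (adjusted p = 0.128). The antiviral RNA-sensing synthetase gene Oas3 had 13.4 ± 1.16 FPKM in dKO and 9.73 ± 0.205 FPKM in WT (adjusted p = 0.158), and Ifi27l2a had 806 ± 23.1 FPKM in dKO and 579 ± 76.5 FPKM in WT (adjusted p = 0.185).

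Of 20 effector Treg genes that have been tied to Irf4, limma called 2 higher and 0 lower in dKO, against 0.345% of all rows called in either direction, and 18 did not pass. Like all lists here, this one was chosen with earlier results of these data known, so its counts are not an independent test. At an unadjusted p under 0.05, 7 were higher and 0 lower, against 9.64% and 7.08% of all rows, and the median log2 difference was 0.32, and 0.20 without WT_1. Itgae, which encodes the CD103 integrin chain, rose to 120.2 and 128.0 FPKM in dKO, against 29.9 and 39.0 FPKM in WT (log2 difference 1.83, SE 0.140, limma adjusted p = 0.0406). Id2, an inhibitor of E proteins, rose to 103.4 and 98.6 FPKM in dKO, against 51.6 and 53.6 FPKM in WT (log2 difference 0.93, SE 0.0594, limma adjusted p = 0.0272). Maf, a transcription factor gene of interleukin-10-producing cells, had 123 ± 6.27 FPKM in dKO and 86.9 ± 10.8 FPKM in WT (adjusted p = 0.163). Without dKO_0 or without dKO_1, where 2 rows of the whole table were called each, 0 of this list was called. Without WT_0 it held 5 calls of 177 over all rows and without WT_1 4 of 217, all higher; with 1 WT library left, the dKO libraries alone give the spread, and the WT library is assumed to vary like them. After quantile normalization Id2 alone was called. Neither Itgae nor Id2 was called with a replicate block on the column suffix (adjusted p = 0.117 and 0.182), with no filter on low values (0.136 and 0.056) or with no intensity trend (0.0597 and 0.0595).

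**Figure D3:**
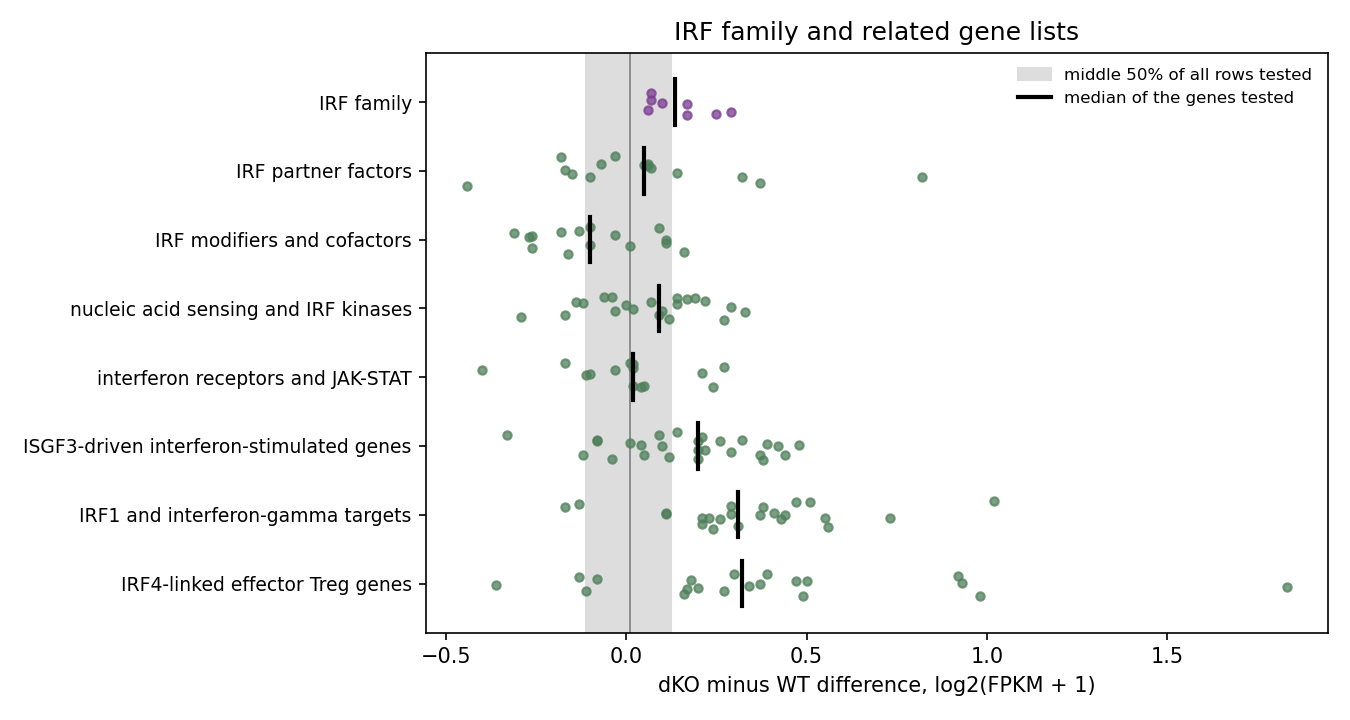
dKO minus WT difference on the log2(FPKM + 1) scale for the 8 IRF genes and 7 related gene lists; each point is a gene, black bars are medians, and the grey band is the interquartile range of all rows tested with its median as a line. The medians are 0.13 for the IRF genes, 0.31 for Irf1 and interferon-gamma targets, 0.32 for effector Treg genes tied to Irf4 and -0.10 for cofactors; that of Irf9 among the IRF points turns to -0.004 after quantile normalization, and the medians of partner factors and of receptor and JAK-STAT genes, 0.05 and 0.02 here, turn to -0.01 and -0.02.

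Irf4, Irf5 and Irf8 are also high in B cells and myeloid cells, whose transcripts were present in all 4 libraries. In bulk RNA, fewer cells of a type and less RNA per cell cannot be told apart. The 14 B cell markers summed to 145 and 221 FPKM in dKO and to 150.1 and 57.9 FPKM in WT. Of the 13 that entered the test, limma called 0 (unadjusted p under 0.05: 0 higher, 0 lower). By the same thresholds 0.345% of all rows were called, 9.64% were higher and 7.08% lower. WT_1 held the lowest value for 12 of the 13 markers and dKO_1 the highest for 12. Their median log2 difference was 0.64, and it was 0.11 without WT_1, 1.29 without WT_0, 0.44 without dKO_1 and 0.96 without dKO_0. The marker Cd79a, a B cell receptor chain gene, had 34.2 and 60.2 FPKM in dKO and 40.8 and 13.7 FPKM in WT, and the other leading markers were Cd79b and Cd22. Irf8 ran through the libraries in the same order as this sum, highest in dKO_1, then WT_0, dKO_0 and WT_1, and so did Irf5. Spib, a B cell and dendritic cell partner of Irf4 and Irf8, had 6.69 and 10.1 FPKM in dKO and 8.07 and 2.01 FPKM in WT. Irf4 was likewise highest in dKO_1 and lowest in WT_1. The order of Irf4 differed from that of the B cell sum in that dKO_0 lay above WT_0, and Irf3 had the same order as Irf4. Of the 8 IRF genes, dKO_1 held the highest value for 5 and WT_1 the lowest for 6, so these extremes were not particular to Irf4, Irf5 and Irf8. The part of B cell transcripts in the levels of Irf4, Irf5 and Irf8 was not tested.

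The 18 monocyte and macrophage markers, led by Lyz2, Hmox1 and C1qa, summed to 635 and 630.3 FPKM in dKO and to 754 and 906 FPKM in WT, and all 18 had negative differences (median log2 difference -0.38). Over all rows, 52.8% of differences were positive. By limma 0 of the 18 were called (unadjusted p under 0.05: 0 higher, 10 lower, against 9.64% and 7.08% of all rows). With small RNA rows left out, where 1.64% of rows were called, Hmox1 was called lower (limma adjusted p = 0.0188). The complement gene C1qa had 77.2 and 78.5 FPKM in dKO and 95.9 and 109.9 FPKM in WT, and the lysozyme gene Lyz2 had 190.1 and 167 FPKM in dKO and 176 and 237 FPKM in WT. The PU.1 gene Spi1, a partner of Irf4 and Irf8 in myeloid and B cells, had 21.8 and 20.8 FPKM in dKO and 21.3 and 27.4 FPKM in WT. Dendritic cell markers summed to 983 and 1200.2 FPKM in dKO and to 1022 and 1014 FPKM in WT, led by the class II genes Cd74, H2-Ab1 and H2-Aa, which B cells share, while Xcr1 and Clec9a, which mark the dendritic cells that depend on Irf8, were between 0.132 and 0.465 FPKM in the 4 libraries. Plasmacytoid dendritic cell markers, relevant to Irf7, summed to 73.1 and 82.2 FPKM in dKO and to 82.0 and 62.3 FPKM in WT, led by Ly6d, Pacsin1 and Pld4. Ly6d, at 29.5 and 33.3 FPKM in dKO and 31.3 and 10.8 FPKM in WT, was the 1 marker of the 6 tested that was lowest in WT_1. The defining marker Siglech was at 0.254 and 0.356 FPKM in dKO and 0.510 and 0.257 FPKM in WT. Plasma cell markers, relevant to Irf4, summed to 185 and 141 FPKM in dKO and to 343 and 244 FPKM in WT, led by Jchain, Mzb1 and Derl3. Limma called 0 of the tested genes of these dendritic, plasmacytoid and plasma cell lists. At an unadjusted p under 0.05 the dendritic list held 0 higher and 1 lower, the plasmacytoid list 1 of each and the plasma cell list 0 higher and 4 lower. Markers of neutrophils, led by S100a8, S100a9 and Ngp, summed to 78.8 and 125 FPKM in dKO and to 386 and 98.7 FPKM in WT, with 0 called by limma (unadjusted p under 0.05: 1 higher, 0 lower). No marker in any of these lists was at 0 in all 4 libraries. What these cells contribute to the IRF values was not tested.

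**Figure D4:**
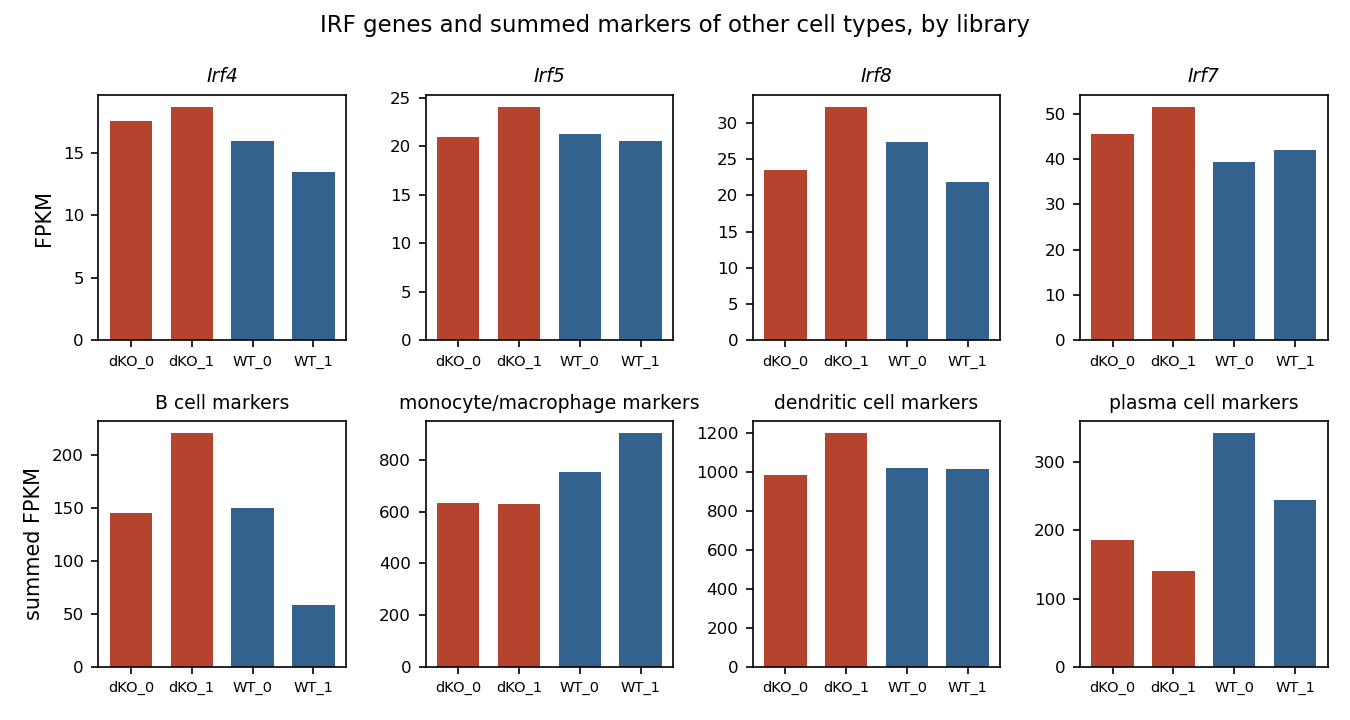
Bars are FPKM of Irf4, Irf5, Irf8 and Irf7 (top) and summed FPKM of the markers of 4 other cell types (bottom) in each library, dKO in red and WT in blue. Irf8 (23.4, 32.2, 27.3 and 21.8 FPKM from left to right) and the B cell sum (145, 221, 150.1 and 57.9 FPKM) share their order, while the monocyte and macrophage sum is lowest in dKO.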

How the data were processed

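Per the submitters' processing notes, processing by the authors involved the mm10 genome, TopHat2 2.1.0, FastQC and Cuffdiff 2.2.1; annotation, strand setting and read filters are not given in the sources used. The authors deposited FPKM per library and per group, with a log2 fold change, p-values and q-values. Column suffixes (0, 1) differ from the titled replicate numbers, so columns were tied to groups only.

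FPKM are not counts, so log2(FPKM + 1) values were fitted with limma 3.58.1 in R 4.3.3 (lmFit, eBayes with intensity trend, two-sided, unpaired, Benjamini-Hochberg over all 11595 rows with at least 1 FPKM in at least 2 libraries). The fit had 2 residual and 2.31 prior degrees of freedom, and was tested on simulated data. Alternatives covered pseudocounts, filters, the 1310 small RNA rows, scaling, the trend, a replicate block and leaving out each library. Intervals are unadjusted for the number of genes. Depth was estimated from steps of values under 0.3 FPKM in genes with 1 transcript, and covers counting error only. GENCODE M21 gave gene positions on GRCm38, the assembly that mm10 names.

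The 8 genes and the lists (partner factors, cofactors, sensing and kinases, receptors and JAK-STAT, interferons, ISGF3 targets, Irf1 targets, Irf4-linked genes and cell markers) were chosen with earlier results of these data known. Named are the 8 genes, up to 4 members per pathway list by call and then by p, the 3 highest markers per list, the 5 profiles nearest to Irf4 and, chosen after their values were seen, Gbp4, Foxp3, Spib, Spi1, Xcr1, Clec9a, Siglech, Ncr1 and the targeted genes. Some genes that this rule names are not reported here.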

Additional observations from a re-analysis of the deposited data

How the results depend on the processing

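With each of 13 alternatives, limma called 0 of the 8 IRF genes. Irf1, Irf3, Irf4, Irf5 and Irf7 kept a positive difference under all 13, Irf4 between 0.17 and 0.40. Irf9 was -0.00403 after quantile normalization. With 1 library left out, Irf9 ranged from -0.018 to 0.14, Irf2 from -0.026 to 0.16 and Irf8 from -0.055 to 0.39. The number of rows called, 40, was 16 with no filter on low values, 132 with at least 1 FPKM in all libraries, 186 with small RNA rows left out and 2 to 217 with 1 library left out; the cause was not tested. A replicate block on the column suffix called 7 rows and 0 of the 8 IRF genes; the suffixes are not known to pair libraries (correlation of deviations -0.11). A crossed replicate block, chosen after seeing the data, called 22 rows. Itgae and Id2 were not called in that fit either (adjusted p = 0.107 each), and Itgae not after quantile normalization (0.0515). For Irf4 in WT_1, counting error at the lower estimate of 109 fragments was 9.58%, which may limit what depth can resolve there. At the upper estimate of 1439 fragments, counting error would be smaller.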

Other observations

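The 5 tested genes whose profile over the 4 libraries lay nearest to that of Irf4, by root mean square distance between mean-centred log2(FPKM + 1) values, were Psmc1 (0.0089), Zfp27 (0.0147), Trex1 (0.0148), Carhsp1 (0.015) and Cdc34 (0.0162). Psmc1, a proteasome ATPase subunit gene, had 74.0 and 78.5 FPKM in dKO and 67.6 and 56.6 FPKM in WT, and Trex1, a DNA exonuclease gene that limits cGAS signalling, had 34.1 and 36.4 FPKM in dKO and 30.7 and 26.8 FPKM in WT. With 4 libraries, 126 rows lay within 0.05 of Irf4, so likeness over so few points sets no gene apart.

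Of 10 NK cell markers, limma called Nkg7 and Prf1 higher in dKO and 0 lower (unadjusted p under 0.05: 4 higher, 5 lower). Over all rows the shares were 0.345% called, 9.64% higher and 7.08% lower by the same thresholds. Their sum was 191 and 195 FPKM in dKO and 89.2 and 96.1 FPKM in WT, led by Nkg7, Prf1 and Xcl1. Nkg7 had 133.6 and 138.9 FPKM in dKO and 43.6 and 43.7 FPKM in WT, while Ncr1, which marks NK cells more strictly, had 2.15 and 3.63 FPKM in dKO and 4.95 and 4.70 FPKM in WT. The CD8 T cell markers Cd8b1, Gzmk and Cd8a summed to 24.5 and 20.4 FPKM in dKO and to 11.1 and 11.2 FPKM in WT, with 0 of the 2 tested called by limma (unadjusted p under 0.05: 1 higher, 0 lower). Most of that difference was Gzmk, at 14.7 and 10.2 FPKM in dKO and 2.90 and 2.81 FPKM in WT. Cd8b1 had 8.97 and 8.74 FPKM in dKO and 7.55 and 7.94 FPKM in WT. Cd8a, too low to be tested, had 0.830 and 1.39 FPKM in dKO and 0.665 and 0.487 FPKM in WT.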
